A study of Mus musculus with 60 samples.

Results

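The genes described here encode 10 heat shock chaperones and cochaperones of the cytosol, Hspa1a, Hspa1b, Hspa8, Hsp90aa1, Hspb1, Hsph1, Dnajb1, Chordc1, Bag3 and Stip1. They were found by symbol among the 21950 protein-coding genes of the count table, and all 10 were present and passed the filter on low counts in every comparison. RNA was sequenced from the hippocampus, the prefrontal cortex and the striatum of Adgrl3 -/- mice (KO), which lack the adhesion G protein-coupled receptor latrophilin-3 (also written Lphn3), and of Adgrl3 +/+ mice (WT). The 60 libraries comprised 10 KO and 10 WT libraries of each region. The mice were killed at 65 to 76 days of age, and 12 of each genotype entered the study. The sources used here name neither the altered part of Adgrl3 nor the strain or the sex. The list was chosen by values from an earlier analysis of these libraries, namely the KO minus WT differences of a wider set of heat shock and endoplasmic reticulum genes, so the KO minus WT values below are a description, and the calls given beside them are not independent evidence about these genes.

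Heat shock proteins bind unfolded or partly folded proteins and help them to fold, to be held in solution or to be passed on for degradation. HSP70 proteins do so in cycles of ATP binding and hydrolysis that J-domain proteins start and nucleotide exchange factors end, and HSP90 takes over clients from HSP70 with the help of cochaperones. Many of the genes are under the control of heat shock factor 1 (HSF1), which binds heat shock elements, that is, alternating inverted copies of the short unit GAA. Neurons make some of these chaperones at a high level without stress, and their inducible HSP70 is known for a weak response to heat.

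In the HSP70 class, Hspa1a (GRCm38 chromosome 17, 34969190 to 34972156, minus strand) and Hspa1b (chromosome 17, 34956436 to 34959238, minus strand) encode the stress-inducible HSP70, and Hspa8 (chromosome 9, 40800984 to 40810087, plus strand) encodes the constitutive HSP70, which also uncoats clathrin vesicles. Hsph1 (chromosome 5, 149614287 to 149636376, minus strand) encodes an HSP110, a nucleotide exchange factor of HSP70. Bag3 (chromosome 7, 128523616 to 128546981, plus strand) encodes another exchange factor, which links HSP70 to autophagy. Dnajb1 (chromosome 8, 83608193 to 83612653, plus strand) encodes a J-domain protein. Hsp90aa1 (chromosome 12, 110690605 to 110702728, minus strand) encodes the inducible HSP90, Stip1 (chromosome 19, 7020696 to 7040026, minus strand) the adaptor HOP, which joins HSP70 to HSP90, and Chordc1 (chromosome 9, 18292125 to 18317442, plus strand) an HSP90 cochaperone also called morgana. Hspb1 (chromosome 5, 135887919 to 135889563, plus strand) encodes a small heat shock protein that holds unfolded clients without ATP. Each feature spans a whole gene, introns included.

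The promoters of these genes were searched for heat shock element units because the units are what HSF1 reads. RefSeq promoter windows (GRCm38.p6, 300 bases around a transcription start, up to 50 bases past it) were found for 8 of the 10 genes. The search took GAANNTTC and TTCNNGAA as 2 alternating units and GAANNTTCNNGAA and TTCNNGAANNTTC as 3, on both strands, where the longer motifs contain the shorter. At least 2 units stood in the windows of 6 of the 8 genes (75.0%), against 16.97% of all 27025 genes in the table, and at least 3 units in 2 of the 8 (25.0%), against 0.662%. Chordc1 had 5 units in an unbroken run across its start site, from -4 to 19, and was the 1 gene of the 27025 with 5. No match was found in the windows of Dnajb1 and Stip1, and that of Bag3 had 2 units, at 43 to 50 past the start. The stretches that carry the units are shown for 4 genes, from before the first unit to 30 bases past the start, 5′ to 3′ on the strand of the gene, with the units and their spacer bases in capitals. A further 2 units of Chordc1, at 34 to 41 past its start, lie beyond the stretch shown. Hsph1 has 2 start sites, and its stretch is placed by start site 2.
Chordc1, chr9:18292197-18292296, plus strand: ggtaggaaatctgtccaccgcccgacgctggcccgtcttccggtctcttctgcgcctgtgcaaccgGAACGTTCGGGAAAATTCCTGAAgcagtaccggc
Hsph1, chr5:149636286-149636389, minus strand: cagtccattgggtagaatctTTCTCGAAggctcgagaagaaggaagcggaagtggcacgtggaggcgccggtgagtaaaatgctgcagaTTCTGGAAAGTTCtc
Hspb1, chr5:135887782-135887948, plus strand: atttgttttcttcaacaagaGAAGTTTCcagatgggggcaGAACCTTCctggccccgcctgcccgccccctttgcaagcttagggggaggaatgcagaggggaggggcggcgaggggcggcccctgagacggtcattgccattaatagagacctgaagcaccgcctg
Hspa1a, chr17:34972127-34972280, minus strand: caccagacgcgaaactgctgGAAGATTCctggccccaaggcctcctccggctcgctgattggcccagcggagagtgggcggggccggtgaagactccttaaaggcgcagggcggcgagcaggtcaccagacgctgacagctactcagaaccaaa
A match describes these letters alone, and binding was not measured. Hspa1a and Hspa1b are near-identical copies: their promoter windows were 98.7% identical over 300 bases and their transcripts 99.1% over 2200 aligned bases. In every library their raw counts stood in a ratio of Hspa1b to Hspa1a between 0.869 and 1.07. Reads of these 2 genes may therefore have been split between them, and their levels are read as those of a pair. The counts of genes below still include each of them.

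Library totals ran from 38985577 to 51387833 counted reads, and the lowest count of any of the 10 genes in a library was 118. Counting error, taken as Poisson, made up 67.5% of the variance of log2 CPM of Bag3 in KO hippocampus and 55.5% in WT prefrontal cortex, and between 6.47% and 29.95% in its other groups. For the remaining genes it was at most 17.8% (Hspb1 in WT hippocampus). Adgrl3 lay between 16.5 and 44.2 CPM (reads of a gene scaled by the size of its library) in the KO libraries and between 116.7 and 172.3 CPM in the WT libraries, with no overlap in any region. Markers of the labelled regions were present: 8 striatum markers summed to 4070 to 6368 CPM in KO and 4110 to 6004 CPM in WT striatum, 5 hippocampus markers to 202 to 337 and 217 to 396 in hippocampus, and 5 cortex markers to 395 to 434 and 381 to 425 in prefrontal cortex. Olfactory bulb markers reached 62.6 CPM in KO and 120.1 CPM in WT prefrontal cortex, and their mean had r = 0.05 there with the mean of the 10 genes. The labels repeat the numbers 1 to 10 over the regions of a genotype, and no label states that equal numbers are 1 animal. Over all genes, libraries of equal number deviated together (median r 0.25 for hippocampus and prefrontal cortex, 0.21 for hippocampus and striatum and 0.24 for prefrontal cortex and striatum, against -0.02, -0.03 and -0.03 between other numbers). Equal numbers are therefore called 1 animal here, 20 in all. Equal numbers of KO and WT showed no such link (medians -0.14, -0.03 and -0.09).

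The level of most of the 10 genes depended on the brain region, to about the extent seen across all genes. In WT animals 6 of the 10 differed between striatum and hippocampus, against 66.6% of all genes tested. Between striatum and prefrontal cortex 8 of the 10 differed, against 71.5%, and between hippocampus and prefrontal cortex 8 of the 10, against 68.5% (edgeR's quasi-likelihood test, Benjamini-Hochberg adjusted p under 0.05 over all genes). In these bulk samples fewer cells of a type and less RNA per cell cannot be told apart.

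The inducible HSP70 pair showed the widest region difference of the list. Hspa1a in WT ran from 9.43 to 14.5 CPM with a median of 11.5 in striatum, from 24.1 to 35.8 with a median of 30.3 in hippocampus and from 19.7 to 27.3 with a median of 22.9 in prefrontal cortex. Every WT striatal library lay below every WT library of the other regions. The fitted log2 difference of Hspa1a was -1.30 ± 0.08 for striatum minus hippocampus (adjusted p = 2.31e-15), -0.94 ± 0.08 for striatum minus prefrontal cortex (6.23e-12) and 0.36 ± 0.08 for hippocampus minus prefrontal cortex (1.62e-04). Hspa1b gave -1.39 ± 0.09, -0.95 ± 0.09 and 0.44 ± 0.09 for the same contrasts, all past the threshold. The constitutive HSP70 gene of the list, Hspa8, had another order. Hspa8 averaged 1697 ± 117 CPM in striatum, 1750 ± 71.5 in hippocampus and 2077 ± 209 in prefrontal cortex (SD, n = 10 each). It was lower in striatum (-0.29 ± 0.05, adjusted p = 1.08e-06) and in hippocampus (-0.24 ± 0.05, 2.12e-05) than in prefrontal cortex, while striatum and hippocampus were not separated (-0.05 ± 0.05, 95% interval -0.14 to 0.04).

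The J-domain gene Dnajb1 and the exchange factor gene Bag3 were ordered in opposite ways. Dnajb1 averaged 43.4 ± 3.54 CPM in WT striatum, 45.2 ± 3.45 in hippocampus and 67.7 ± 9.89 in prefrontal cortex. Its difference from prefrontal cortex was -0.64 ± 0.06 in striatum (adjusted p = 1.94e-10) and -0.58 ± 0.06 in hippocampus (2.07e-09), and every WT prefrontal library, at 54.9 CPM or more, lay above every WT library of the other regions, at 49.5 or less. Bag3 averaged 7.05 ± 1.54 CPM in WT striatum, 6.86 ± 0.740 in hippocampus and 4.75 ± 0.437 in prefrontal cortex, higher than prefrontal cortex by 0.57 ± 0.10 in striatum (3.70e-06) and 0.53 ± 0.10 in hippocampus (1.09e-05). Striatum and hippocampus were not separated for either gene (Dnajb1 -0.06 ± 0.06, Bag3 0.03 ± 0.09).

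Hsp90aa1 was lower in striatum than in hippocampus (-0.23 ± 0.04, adjusted p = 8.19e-06) and prefrontal cortex (-0.30 ± 0.04, 6.62e-08), with 1068 ± 73.9, 1251 ± 63.6 and 1318 ± 94.99 CPM in striatum, hippocampus and prefrontal cortex. Stip1 was lower in striatum (-0.19 ± 0.05, 6.57e-04) and in hippocampus (-0.17 ± 0.05, 0.00232) than in prefrontal cortex. Chordc1 was lower in striatum than in hippocampus (-0.25 ± 0.05, 1.13e-04) and prefrontal cortex (-0.18 ± 0.05, 0.00399). Hsph1 was higher in striatum than in hippocampus (0.18 ± 0.07, 0.0167) and lower in hippocampus than in prefrontal cortex (-0.22 ± 0.07, 0.00476). Hspb1 was lower in hippocampus than in prefrontal cortex (-0.43 ± 0.11, 0.00142). Its difference between striatum and hippocampus (0.28 ± 0.12, adjusted p = 0.0360) did not pass without WT replicate 1, 4, 5 or 6 (lowest value 0.23).

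With the replicate number as a block, which pairs the regions of an animal, 6 genes passed for striatum minus hippocampus, against 69.9% of all genes. For striatum minus prefrontal cortex 9 passed, against 74.7%, with Hspb1 added (-0.16, adjusted p = 0.0275), and for hippocampus minus prefrontal cortex 9, against 72.1%, with Hsp90aa1 added (-0.07, 0.0311). In the KO groups 3 of the 10 genes passed for striatum minus hippocampus, against 62.5% of all genes, 7 for striatum minus prefrontal cortex, against 70.9%, and 8 for hippocampus minus prefrontal cortex, against 66.0%. The genes called in WT and not in KO were Hspb1, Hsph1 and Chordc1 in the first of these contrasts (KO values 0.41, 0.10 and -0.16) and Chordc1 in the second (KO value -0.02). The genotype by region interaction called none of the 10 by edgeR, against 0.0248% of all genes (lowest unadjusted p of the 10, 0.310, for Chordc1). That fit took the 3 regions of an animal as separate libraries. With the replicate block 0 of the 10 and 0 of all genes were called, and DESeq2 called none of the 10. These lists are therefore not shown to differ between genotypes.

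**Figure D1:**
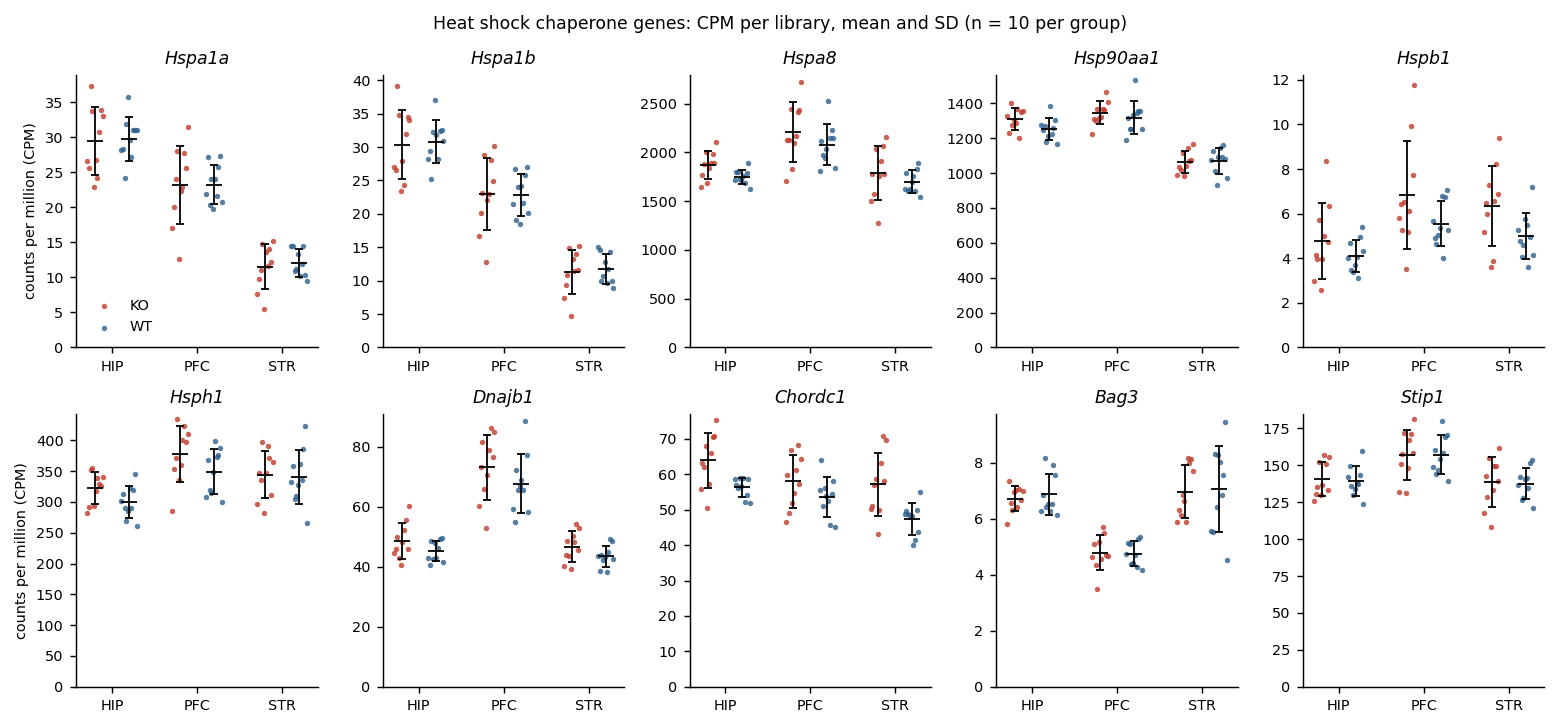
Level of each gene in CPM (y axis, starting at 0) in hippocampus (HIP), prefrontal cortex (PFC) and striatum (STR), KO left of WT; points are libraries, bars the mean and SD of 10. Hspa1a and Hspa1b are lowest in striatum, Dnajb1 is highest in prefrontal cortex, and KO and WT libraries overlap for every gene and region.

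The KO and WT libraries overlapped for every one of the 10 genes in every region, and the fitted KO minus WT differences were small. The share of all genes with such an overlap was not computed, so the overlap is not shown to be particular to these genes. None of the 10 was called in hippocampus, where 0.128% of all genes were, in prefrontal cortex (0.117%), in striatum (0.0514%) or on counts summed over the 3 regions of an animal (0.162%), by edgeR or by DESeq2. At an unadjusted p under 0.05 edgeR placed 2, 0, 2 and 1 of the 10, against 8.14%, 11.8%, 7.14% and 10.5% of all genes. The fitted value was above 0 for 7 of the 10 genes in hippocampus, 8 in prefrontal cortex, 6 in striatum and 7 on the sums. The medians of the 10 were 0.08, 0.05, 0.02 and 0.05 on the log2 scale. Over all genes the medians ran from -0.0037 to 0.0025, and 50.8%, 48.0%, 51.5% and 50.1% of genes were above 0. Since these contrasts chose the list, nothing is read from the counts.

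Chordc1, the HSP90 cochaperone with the longest run of heat shock element units, had fitted values above 0 in each region. In striatum it ran from 43.3 to 70.9 CPM with a median of 57.4 in KO, against 40.0 to 55.0 with a median of 48.6 in WT. In hippocampus it ran from 50.5 to 75.3 with a median of 64.6 in KO, against 51.9 to 59.1 with a median of 56.8 in WT. In prefrontal cortex it ran from 46.6 to 68.2 with a median of 58.6 in KO, against 45.0 to 64.0 with a median of 54.1 in WT. Above the highest WT library stood 7 KO libraries in hippocampus, 3 in prefrontal cortex and 6 in striatum, while KO replicate 5 lay below the lowest WT library in hippocampus. The KO minus WT difference was 0.18 ± 0.06, 0.11 ± 0.07 and 0.27 ± 0.08 in hippocampus, prefrontal cortex and striatum and 0.18 ± 0.06 on the sums (a fold of 1.13). Of the alternatives run on the sums, 1 alone passed it (0.19), among 650 of 16121 genes. That was the fit of 60 single libraries with a region term, which counts the 3 libraries of an animal as separate.

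The small heat shock protein gene Hspb1 had fitted values above 0 in each region and a wide spread. In striatum it ran from 3.63 to 9.40 CPM with a median of 6.51 in KO, against 3.60 to 7.22 with a median of 4.87 in WT. In prefrontal cortex it ran from 3.53 to 11.8 with a median of 6.28 in KO, against 4.004 to 7.07 with a median of 5.33 in WT. In hippocampus it ran from 2.56 to 8.37 with a median of 4.46 in KO, against 3.13 to 5.39 with a median of 4.05 in WT. In each region 3 KO libraries stood above the highest WT library, and in hippocampus 2 and in prefrontal cortex 1 stood below the lowest. The difference was 0.22 ± 0.17 in hippocampus, 0.29 ± 0.16 in prefrontal cortex and 0.35 ± 0.15 in striatum. It was 0.09 in hippocampus without KO replicate 8 and 0.17 in prefrontal cortex without KO replicate 10. Hspb1 and Hsph1 lie on chromosome 5 with Adgrl3, 54.1 and 67.8 Mb from it. Most genes called between KO and WT lie on that chromosome (with Adgrl3 itself, 18 of 20 in hippocampus, 14 of 18 in prefrontal cortex, 8 of 8 in striatum and 23 of 27 on the sums). The called gene nearest to Hspb1 was 11.9 Mb away, and the one nearest to Hsph1 was 0.886 Mb away (Brca2, striatum).

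Among the others, Dnajb1 had nearly the same value in the 3 regions, 0.10 ± 0.06 in hippocampus, 0.10 ± 0.09 in prefrontal cortex and 0.11 ± 0.06 in striatum, with 7 of 10 KO libraries above the WT mean in each. Hspa8 had values of 0.09 ± 0.04, 0.08 ± 0.07 and 0.08 ± 0.07, with means of 1869 ± 144 CPM in KO and 1750 ± 71.5 in WT hippocampus. Hsph1 had 0.11 ± 0.05 in hippocampus, 0.10 ± 0.07 in prefrontal cortex and 0.02 ± 0.07 in striatum. Hsp90aa1 had 0.06 ± 0.03, 0.02 ± 0.04 and 0.00 ± 0.04. For Hspa1a, Hspa1b, Bag3 and Stip1 every value lay between -0.06 and 0.01.

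**Figure D2:**
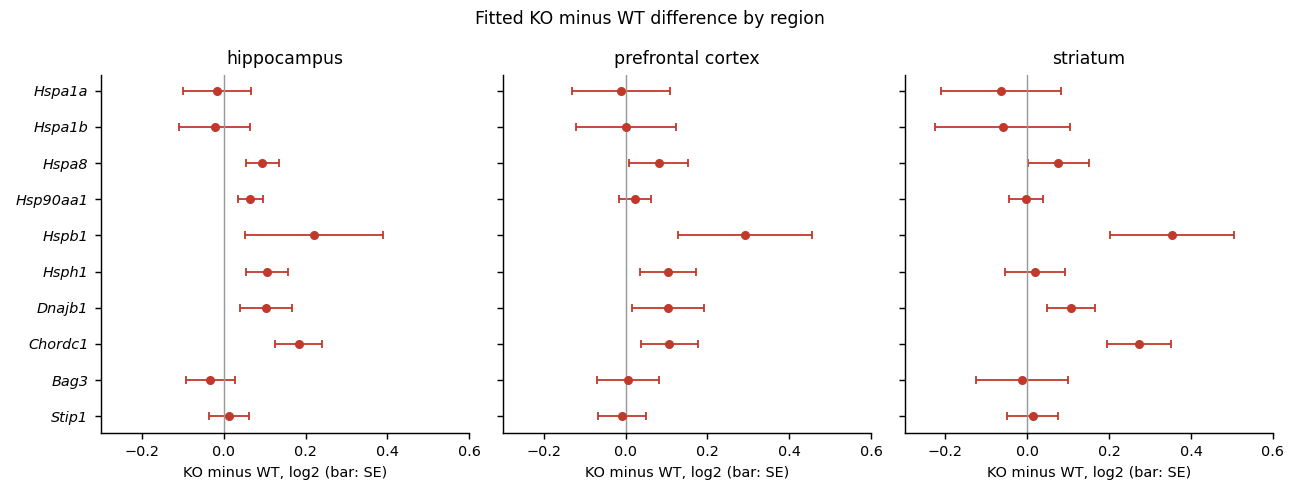
Fitted KO minus WT difference of each gene on the log2 scale (x axis) by region, with its SE as a bar (n = 10 KO and 10 WT libraries). Chordc1 and Hspb1 lie farthest above 0 in striatum, at 0.27 and 0.35, and Hspa1a and Hspa1b lie near or below 0 in all regions.

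The KO libraries were more spread out than the WT libraries for 7 to 9 of the 10 genes, and for most of all genes as well. The SD of log2 CPM was larger in KO for 7 of the 10 genes in hippocampus, 9 in prefrontal cortex and 7 in striatum, with a median KO to WT ratio of 1.58, 1.38 and 1.59. Over all 16121 genes the ratio had a median of 1.09, 1.13 and 1.10, and 59.5%, 64.3% and 60.9% of genes had the larger SD in KO. The counts in hippocampus and striatum are close to these shares, and the 10 genes share the same animals. The SDs over all genes were taken with a prior count of 2 and those of the 10 genes without it. Hspa8 in striatum ran from 1272 to 2160 CPM in KO, against 1539 to 1893 in WT, so that 4 KO libraries lay above and 2 below the whole WT range (SD ratio 2.40). Hspa1a in prefrontal cortex ran from 12.7 to 31.4 CPM in KO, against 19.7 to 27.3 in WT, with 3 KO libraries above and 2 below that range (ratio 2.22). Chordc1 in hippocampus had a ratio of 2.53. Hsp90aa1 went the other way, with ratios of 0.982, 0.697 and 0.826 in hippocampus, prefrontal cortex and striatum. The difference in spread was not tested.

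The animals at the extremes kept their places in the 3 regions. With each gene centred on its region and genotype and scaled to an SD of 1, the mean of the 10 genes was highest in KO replicate 10 in hippocampus (0.995), prefrontal cortex (1.33) and striatum (1.49), and next highest in KO replicate 8 (0.57, 1.14 and 1.15). It was lowest in KO replicate 5 (-1.07, -1.61 and -2.27) and next lowest in KO replicate 1 (-0.90, -1.54 and -1.38). Among WT animals replicate 10 was lowest in each region (-0.63, -0.97 and -1.12), and replicates 8 and 9 were among the 3 highest (0.41, 0.83 and 0.90 for replicate 8 and 0.81, 0.85 and 0.76 for replicate 9). Others moved: KO replicate 3 had 0.37, -0.22 and -0.33 in hippocampus, prefrontal cortex and striatum, and WT replicate 6 had 0.20, 0.89 and -0.003. KO replicate 5 had the lowest KO level of Hspa1a, Hspa1b, Hspb1 and Dnajb1 in all 3 regions. The KO replicate 5 striatal library also had the highest share of mitochondrial reads of all 60 libraries (8.78%), while its hippocampal library, at 6.15%, lay within the hippocampal range of 5.66% to 6.99%; its total counts were 45079640, 49999981 and 44212647 in hippocampus, prefrontal cortex and striatum.

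**Figure D3:**
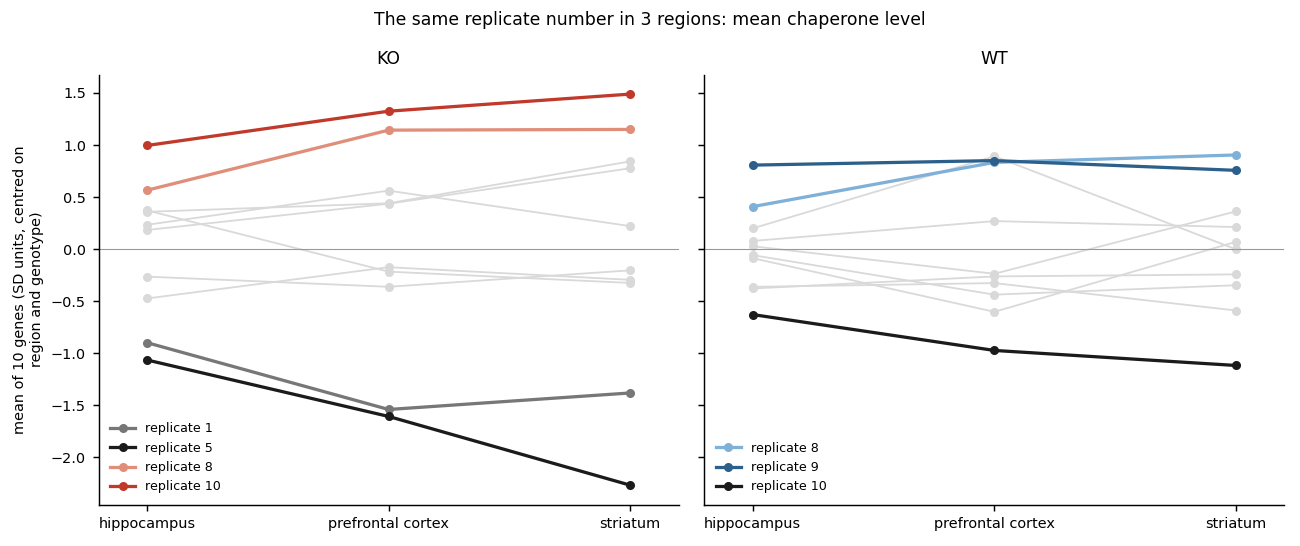
Mean of the 10 genes in each library (y axis, SD units after centring on region and genotype) by region, with a line for each replicate number, KO left of WT. KO replicates 10 and 8 are highest and 5 and 1 lowest in all 3 regions, and WT replicate 10 is lowest of the WT animals in all 3.

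Per gene, levels of the same animal in different regions were correlated for 5 to 8 of the 10 genes, depending on the pair of regions. After centring on genotype, r over the 20 animals passed for 6 of the 10 genes between hippocampus and prefrontal cortex, against 7.27% of all genes, for 5 between hippocampus and striatum, against 6.40%, and for 8 between prefrontal cortex and striatum, against 11.7% (two-sided permutation of animals within genotype, 100000 resamples, adjusted over all 16121 genes and the 3 pairs). The medians of r over the 10 genes were 0.74, 0.73 and 0.80, against 0.21, 0.17 and 0.28 over all genes. The heights of single libraries were known when the list was made, so these p-values are not independent support. If equal numbers did not mark the same animal, the values would have no meaning as repeats.

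Stip1, Dnajb1, Hspa8, Hspb1 and Hsph1 passed in every pair of regions. Stip1 reached r = 0.91 between prefrontal cortex and striatum (rho 0.90, permutation p = 1e-05, the smallest the resamples can give, adjusted p = 9.69e-04, and r = 0.86 without the 2 animals farthest from the median). Dnajb1 had r = 0.84 between hippocampus and prefrontal cortex, 0.87 between hippocampus and striatum and 0.82 between prefrontal cortex and striatum (rho 0.87, 0.90 and 0.76; permutation p = 1e-05, 1e-05 and 2e-05; adjusted p at most 0.00136). It kept r of 0.71 to 0.84 within WT alone and 0.86 to 0.91 within KO alone. Hspb1 had r of 0.84, 0.79 and 0.88 for these pairs and Hsph1 0.81, 0.83 and 0.79. Hspa8 had r of 0.81, 0.85 and 0.80, of which the value between hippocampus and prefrontal cortex was 0.95 within KO and 0.43 within WT. Bag3 passed in no pair (r 0.53, 0.46 and 0.38), and Hsp90aa1 only between prefrontal cortex and striatum (0.65, adjusted p = 0.0406).

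For the HSP70 pair, and for Chordc1 where striatum was involved, r was higher within KO than within WT. For Hspa1a r was 0.74, 0.62 and 0.96 within KO and 0.07, 0.06 and 0.17 within WT for hippocampus and prefrontal cortex, hippocampus and striatum, and prefrontal cortex and striatum. Without the 2 animals farthest from the median, KO replicates 5 and 10, the pooled r of Hspa1a between prefrontal cortex and striatum was 0.61, against 0.82 with all 20. Chordc1 between hippocampus and striatum had r = 0.91 within KO and -0.29 within WT, and its pooled r of 0.66 (adjusted p = 0.0619) became 0.41 without KO replicates 5 and 10, so it rests on those animals. Within-KO r exceeded within-WT r for 8, 6 and 8 of the 10 genes in the 3 pairs. The share over all genes was not computed, so this is not shown to be particular to these genes. With 10 animals per genotype the difference between within-KO and within-WT r was not tested.

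Other values that moved with the animals' level were the mitochondrial share in striatum (r = -0.61 with the mean of the 10 genes, 0.09 in hippocampus and 0.10 in prefrontal cortex) and the immediate early genes, which follow neuronal activity (r of their mean 0.34, 0.54 and 0.35 in hippocampus, prefrontal cortex and striatum). All 16 immediate early genes were measured; their summed level ran from 652 to 1108 CPM in KO and from 461 to 1063 CPM in WT hippocampus, from 1248 to 3042 and from 570 to 2778 in prefrontal cortex, and from 873 to 1574 and from 554 to 1592 in striatum. With the mitochondrial share regressed out, 6, 5 and 4 of the 10 genes passed in the 3 pairs of regions, against 7.39%, 5.81% and 12.7% of all genes. Between prefrontal cortex and striatum Hspa1b, Hspa8, Hsp90aa1 and Hsph1 no longer did (adjusted p 0.0673, 0.0631, 0.116 and 0.0662). The log2 total count of a library had r of -0.31, -0.25 and -0.07 with the mean of the 10 genes in hippocampus, prefrontal cortex and striatum. The part of the immediate early genes and of the total count was not tested. Means of the lists of astrocyte, oligodendrocyte, microglial, endothelial, mural, choroid plexus, erythrocyte and neuronal markers had r between -0.25 and 0.21 with the 10 genes over the 60 libraries, and hypothalamus markers, a sign of tissue beside the dissected regions, had 0.32. Within single regions some were larger: astrocyte markers had 0.48 in striatum, oligodendrocyte markers 0.38 in prefrontal cortex and 0.37 in striatum, endothelial and mural markers -0.38 and -0.49 in prefrontal cortex, and striatum markers 0.46 in prefrontal cortex and -0.47 in striatum. Single markers of a list differed widely over the 60 libraries. Endothelial markers ran from r = -0.78 (Slco1a4) to 0.47 (Ly6c1) and microglial markers from -0.52 (P2ry12) to 0.38 (C1qc). Mural markers ran from -0.47 (Pdgfrb) to -0.02 (Tagln) and astrocyte markers from -0.27 (Slc1a3) to 0.45 (Aldh1l1). The part of these cell types in the result was not tested.

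**Figure D4:**
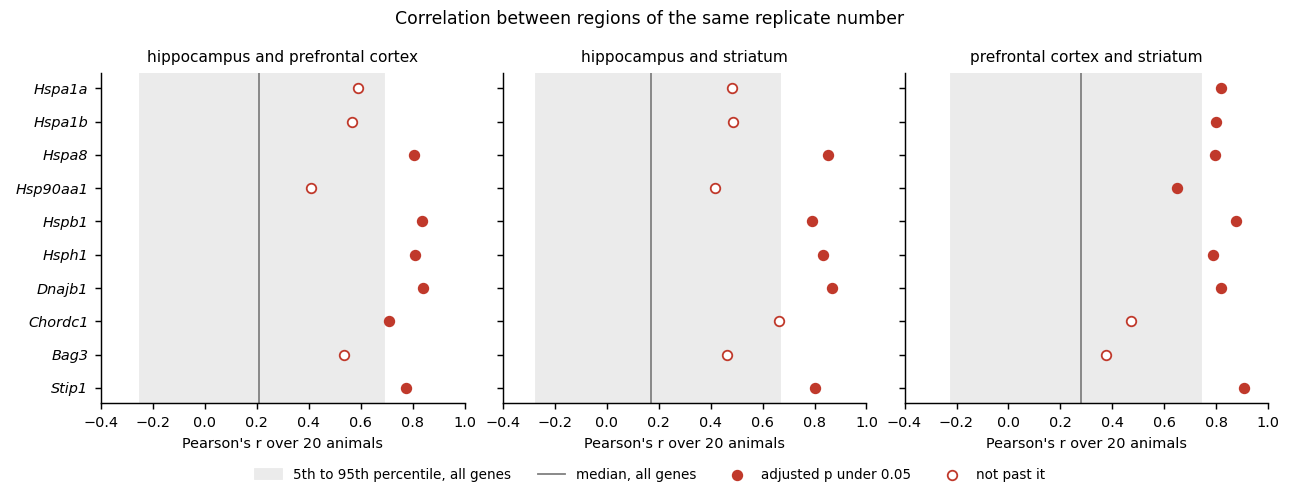
Pearson's r of each gene between regions over 20 animals (x axis), centred on genotype; filled points passed an adjusted p of 0.05, the band is the 5th to 95th percentile of all 16121 genes and the line their median. Stip1, Dnajb1, Hspa8, Hspb1 and Hsph1 lie beyond the band in all 3 panels, and Bag3 lies inside it in all 3.

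Most of the 10 genes also varied together within regions. Over the 60 libraries, which share 20 animals, Hspa8 and Stip1 had r = 0.91, Hsph1 and Stip1 0.88, Hspa8 and Hsph1 0.84 and Hspb1 and Stip1 0.75. Stip1 and Hspa8 each had r over 0.5 with 8 of the other 9 genes, both of the HSP70 pair among them. Of the genes outside the list, 2.855% had r over 0.5 with Stip1 and 4.37% with Hspa8. Chordc1 had its highest r with the HSP70 pair (0.62 with Hspa1a and 0.63 with Hspa1b) and was close behind with Hspb1 (0.62) and Hspa8 (0.62). Bag3 had the lowest values over the 60 libraries, with a highest value of 0.33 and 0.04 with Hspa1a. Its r was over 0.5 with none of the other 9, and with 1.235% of the genes outside the list. In striatum alone its r was 0.50 with Hspb1, 0.53 with Hsph1 and 0.50 with Stip1, and lower with the others. The part of its counting error, the largest of the 10 genes in KO hippocampus and WT prefrontal cortex, was not tested. Hsp90aa1 had r over 0.5 with 3 of the other 9, against 1.496% of the genes outside the list. In hippocampus the HSP70 pair was looser, with r of 0.11 between Hspa1a and Stip1, beside 0.84 in prefrontal cortex and 0.78 in striatum. Hsp90aa1 was looser there too, with r of 0.22 with Hspa8, beside 0.84 in prefrontal cortex and 0.71 in striatum. Its hippocampal r was 0.27 with Stip1, -0.08 with Hspb1 and 0.58 with Hsph1.

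The genes outside the list whose level was most like the mean of the 10 were mostly other chaperone genes. Of the 10 highest, Pdia3 (r = 0.87), Calr (0.85), Pdia6 (0.85), Hspa5 (0.84) and Dnajb11 (0.84) encode proteins of the endoplasmic reticulum that fold secreted and membrane proteins. Ahsa2 (0.86) and Ahsa1 (0.85) are of a family of activators of the HSP90 ATPase, and Dnaja1 (0.86) encodes a J-domain partner of HSP70. The others were Tubgcp4 (0.85), of the gamma-tubulin complexes, and Ina (0.84), a neuronal intermediate filament gene. The most negative were Slc6a6 (-0.84), the taurine transporter gene, Cirbp (-0.84), which encodes an RNA-binding protein induced by cold, and Hnrnpdl (-0.82). Rbm3, another cold-inducible gene named after its value was seen, had r = -0.69. Cirbp held its sign in each region (-0.87, -0.81 and -0.89 in hippocampus, prefrontal cortex and striatum).

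Across the related chaperone lists, 13 of 14 endoplasmic reticulum chaperones, 6 of 7 subunits of the chaperonin TRiC, 6 of 13 other HSP90 and cochaperone genes and 3 of 8 other J-domain genes had r over 0.5 with the mean of the 10, against 3.56% of all genes. The TRiC subunits followed the 10 in prefrontal cortex and striatum (r of their mean 0.82 and 0.71) more closely than in hippocampus (0.23). Of the other HSP70 and HSP110 genes 2 of 8 had r over 0.5, of the mitochondrial chaperones 2 of 6, of the heat shock factors and their regulators 1 of 5, of the other HSF1 targets 1 of 8, of the other small heat shock protein genes 1 of 7 (Cryab, 0.56) and of the other BAG genes 0 of 5. The means of these lists had r of 0.68, 0.66, 0.21, 0.62, 0.05 and 0.01 over the 60 libraries, in the same order. The mitochondrial chaperones, like TRiC, followed less closely in hippocampus (0.15) than in prefrontal cortex (0.87) and striatum (0.63).

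**Figure D5:**
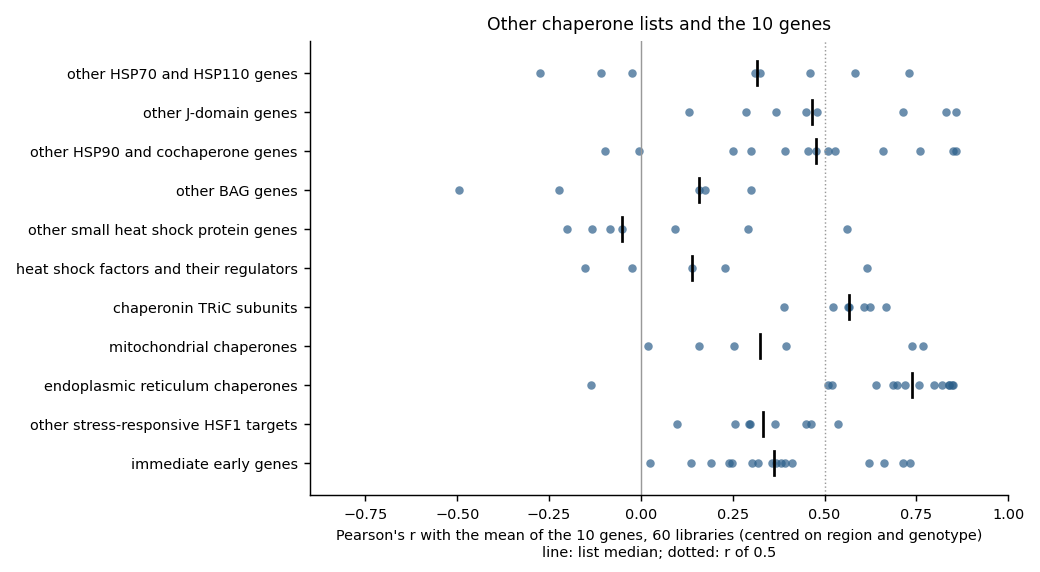
Pearson's r of each gene of the related lists (points) with the mean of the 10 genes over 60 libraries after centring on region and genotype (x axis), by list; the black line is the list's median. Endoplasmic reticulum chaperones sit highest, with a median of 0.74, and other small heat shock protein genes sit around 0, with a median of -0.05.

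Between KO and WT these lists held a single called gene. Hspb8, a small heat shock protein gene that works with Bag3 and lies on chromosome 5, fell by 0.94 ± 0.17 in hippocampus (adjusted p = 0.0295) and by 0.84 ± 0.16 on the sums (0.0371); in prefrontal cortex its value was -1.19 ± 0.25 (0.0732) and in striatum -0.46 ± 0.15 (0.545). Its sum with the 6 other small heat shock protein genes ran from 50.8 to 99.3 CPM in KO and from 70.7 to 101.7 CPM in WT hippocampus. The 14 endoplasmic reticulum chaperones had values above 0 for 14, 13 and 14 genes in hippocampus, prefrontal cortex and striatum, with medians of 0.10, 0.14 and 0.15, and none was called. Genes of this list were in the wider set whose KO minus WT values guided the choice of the 10. Other lists were shifted beside it, with none called. Immediate early genes were above 0 for 11, 14 and 13 of 16 (medians 0.06, 0.15 and 0.14). Oligodendrocyte markers were above 0 for 0, 7 and 7 of 7 (-0.13, 0.20 and 0.15) and erythrocyte markers for 0 of 5 in each region (-0.57, -0.58 and -0.31). Olfactory bulb markers had medians of -0.05, -1.70 and 0.12 in hippocampus, prefrontal cortex and striatum. Choroid plexus markers had -0.61, 0.23 and -0.13, and mural and meningeal markers 0.04, -0.23 and -0.12. The part of these lists was not tested. Of the endoplasmic reticulum chaperones, Pdia4, a disulfide isomerase gene, had the smallest p in striatum (0.34 ± 0.10, adjusted p = 0.461). On the sums it was Xbp1 (0.28 ± 0.10, 0.316), which encodes a transcription factor of the unfolded protein response. All 8 other J-domain genes had values above 0 in each region (medians 0.06, 0.06 and 0.06), with Dnaja1 at 0.09 ± 0.03 in hippocampus (0.392) and Dnajb5 at 0.33 ± 0.14 in prefrontal cortex (0.347) and 0.31 ± 0.09 in striatum (0.484).

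The other lists had no called gene in any region. The 13 other HSP90 and cochaperone genes had medians of 0.03, 0.01 and 0.02 in hippocampus, prefrontal cortex and striatum, and Ahsa2 had the smallest p in each (0.13 ± 0.04, 0.10 ± 0.05 and 0.18 ± 0.08; adjusted p 0.418, 0.491 and 0.695). The 5 heat shock factors and regulators had medians of 0.03, 0.03 and 0.00, with Hsf2 at 0.04 ± 0.03 in hippocampus and Hsf1 at 0.12 ± 0.05 in striatum (0.700 and 0.678). The 8 other HSF1 targets had medians of 0.01, 0.04 and 0.01, with Cacybp at 0.11 ± 0.03 in hippocampus (0.289). The 7 TRiC subunits had medians of 0.02, 0.00 and 0.01, the 6 mitochondrial chaperones of 0.00, -0.01 and 0.00, the 8 other HSP70 and HSP110 genes of 0.05, -0.02 and -0.01 and the 5 other BAG genes of 0.01, 0.02 and 0.00. The 7 other small heat shock protein genes, Hspb8 among them, had -0.12, -0.05 and 0.03, with 6, 7 and 6 of them tested.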

How the data were processed

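The deposited table holds raw counts of reads per gene for 60 libraries. The submitters' processing notes name GRCm38, STAR 2.5.2b, cutadapt 1.16, bedtools, FastQC 0.11.4 and DESeq2 1.16.1; per the file headers, a feature spans a whole gene, so intronic reads count. The sources used here do not give the strand setting. Hspa1a overlaps Gm20481 on the opposite strand.

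KO and WT were compared per region, and on counts summed over the equally numbered libraries of a genotype, with edgeR 4.0.16 in R 4.3.3 (TMM, filterByExpr, robust quasi-likelihood F test, Benjamini-Hochberg over all genes, called at adjusted p under 0.05). WT regions were compared in 1 fit of 30 libraries. CPM follow TMM scaling, and values after ± are SD for levels and SE for log2 differences. Correlations use log2 CPM with a prior count of 2, in Python 3.11.15. The tests were tried on simulated data first. Named genes are the 10, the gene of smallest p and all called genes of each list, the 10 most alike, the 3 least alike and Adgrl3; Rbm3 was added after its value was seen, and a gene that the rule names is not reported here.

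Members and lists were chosen with earlier results of these data known. Alternatives were RLE size factors, DESeq2 1.42.0, other filters on low counts, joint fits, a replicate block, leaving out each library, and, added after seeing the data, leaving out each animal from the correlations. Equal numbers deviated together across regions (same-number r from 0.166 to 0.374 for hippocampus and prefrontal cortex, -0.187 to 0.443 for hippocampus and striatum, 0.161 to 0.376 for prefrontal cortex and striatum); 18, 12 and 19 of 20 libraries correlated best with their own number. The labels do not say that the libraries of a group came from separate animals, so p-values measure the spread between these libraries; 12 mice per genotype are stated.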

Additional observations from a re-analysis of the deposited data

Results flagged for a closer look

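Among 60 sets of 10 libraries (10 genes in 6 groups), 1 held a library far from the others. Hsp90aa1 in WT prefrontal cortex was at 1535 CPM in replicate 6, and the next highest library was at 1357 CPM; the gap was 0.512 of the range of the group, above Dixon's critical value. Chance flags about 1 in 20 such sets. No gene of the 10 was called by the interaction test for a KO minus WT difference that differed between regions, with or without the replicate block. With the block 0 of all genes were called.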

How the results depend on the processing

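The number of the 10 genes called between KO and WT stayed at 0 in each region and on the sums under RLE size factors, other filters, DESeq2, the replicate block and without any single library. It was 1 (Chordc1, among 650 of 16121 genes called) in the fit of 60 libraries with region as a second term. For striatum minus hippocampus it was 3 in KO groups (62.5% of all genes called), against 6 in WT groups (66.6%). Leaving out a replicate gave 5 to 6 in the WT groups there, 8 to 8 for striatum minus prefrontal cortex and 8 to 9 for hippocampus minus prefrontal cortex. With the mitochondrial share regressed out, 15 of the 30 same-animal correlations passed, against 19. With any single animal left out, r of Stip1, Dnajb1, Hspa8, Hspb1 and Hsph1 stayed between 0.72 and 0.94 (chosen after seeing the data).

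Counts over all genes moved more. The replicate block, which joins equal numbers of KO and WT that do not pair, gave 5, 10, 3 and 11 genes in hippocampus, prefrontal cortex, striatum and the sums, and DESeq2 47, 214, 25 and 123. For the interaction the replicate block, there pairing the regions of an animal, gave 0 by edgeR (1092 at an unadjusted p under 0.05) and DESeq2 17. One fit of all 60 libraries gave 208 in prefrontal cortex and 22 in striatum, and the fit with region as a second term 650. Leaving out a library gave 12 to 26 in hippocampus, 9 to 68 in prefrontal cortex, 5 to 15 in striatum and 19 to 48 on the sums, with the highest without KO replicate 7 in prefrontal cortex, WT replicate 5 in striatum and KO replicate 5 on the sums. The causes were not tested. Of the region differences of single genes, Hsp90aa1 in hippocampus minus prefrontal cortex passed without WT replicate 1 (-0.10, adjusted p = 0.0406). No difference of the 10 genes that passed changed sign under these alternatives.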
